A study of Mus musculus with 2 samples.

Results

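Calretinin and calbindin are encoded by the mouse genes Calb2 and Calb1, which were picked out of the 32285 genes in the files by their symbols. The pair was proposed with counts of these libraries already known, among them the difference in Calb2 between the mutant and control libraries, so that difference is given below as a description. Calb2 (ENSMUSG00000003657) lies on the minus strand of GRCm38 chromosome 8 from 110137502 to 110168210, and Calb1 (ENSMUSG00000028222) on the plus strand of chromosome 4 from 15881264 to 15908064. Each has annotated transcripts of up to 11 exons, and no other annotated gene overlaps either of them. The data are single-cell RNA-seq of cranial neural crest cells (CNCCs), migratory cells from the edges of the closing neural tube that build much of the face. Heads of E11.5 mouse embryos, staged in embryonic days, were cut below the second pharyngeal arch, and cells that had recombined the mTmG reporter under Wnt1:CRE were sorted by their membrane GFP. Control cells (Tfap2HET) carried Tfap2a wt/flox and Tfap2b wt/flox. Mutant cells (Tfap2NCKO) carried Tfap2a flox/flox and Tfap2b flox/flox. Both groups also carried r26 mTmG/mTmG and Wnt1CRE+, and each library pooled 2 embryos. Wnt1:CRE is also active in the dorsal midbrain and hindbrain, and the sorted cells included brain neurons and progenitors beside the CNCCs.

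Both proteins belong to the EF-hand family, which binds calcium in a loop held between a pair of helices. Calretinin and calbindin act as fast calcium buffers in the cytoplasm, and antibodies against them are widely used to label subsets of neurons, including interneurons and sensory neurons. ALX1 is a homeobox transcription factor of the frontonasal mesenchyme, the part of the CNCC mesenchyme that forms the midface, and here a mesenchyme cell with at least 1 Alx1 UMI is called Alx1-positive. Transcripts are counted by their UMIs, the barcodes given to single captured molecules before amplification.

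The control library held 6148 barcodes and the mutant library 6063, of which 5625 and 5587 passed the filters, with medians of 13478 and 12234 UMIs per cell. Each group had 1 library, so there is no replicate error and no test between the groups. The intervals in brackets are 95% intervals that cover counting error only, exact except for differences of shares. Those of summed UMIs treat each UMI as an independent draw. UMIs of a gene can lie together in few cells, so these intervals do not cover the spread between cells. Xist, the transcript of the inactive X, was detected in 98.8% of control and 0.107% of mutant cells. The sex of the embryos and their genotype thus cannot be told apart here. Clustering without the members, the other EF-hand genes, Alx1, the targeted genes and some others gave mesenchyme-like, neuronal and glia-like classes. Neuron-like and brain progenitor-like cells are clusters of the neuronal class. In the Alx1-positive mesenchyme, the targeted gene Tfap2a had 29.3 UMIs per 1000000 UMIs (CPM) in the control and 14.1 CPM in the mutant library, and Tfap2b 95.2 and 73.1 CPM. These 3′ counts do not tell an intact floxed allele from a recombined one.

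The pair divided between Alx1-positive mesenchyme and neuron-like cells. Of the 148 Calb2 UMIs of the control library, 79.1% lay in Alx1-positive mesenchyme, which held 29.2% of its cells. Of the 445 Calb2 UMIs of the mutant library, 62.9% lay there, in 16.2% of the cells. Calb1 lay elsewhere: neuron-like cells held 67.6% of its 170 control UMIs and 57.1% of its 294 mutant UMIs. Per Calb1 UMI, the Alx1-positive mesenchyme held 29.3 Calb2 UMIs in the control library (11.1 to 109) and 93.3 in the mutant library (31.6 to 455). Neuron-like cells held 0.0522 (0.0188 to 0.117) and 0.429 (0.320 to 0.568). In both libraries the ratio of the pair took opposite sides of 1 in Alx1-positive mesenchyme and neuron-like cells, with intervals that do not overlap. Alx1-negative mesenchyme held 0.875 (0.396 to 1.91) in the control and 0.706 (0.308 to 1.57) in the mutant library, with intervals that include 1. A single cell, in the mutant library, carried UMIs of both genes.

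**Figure D1:**
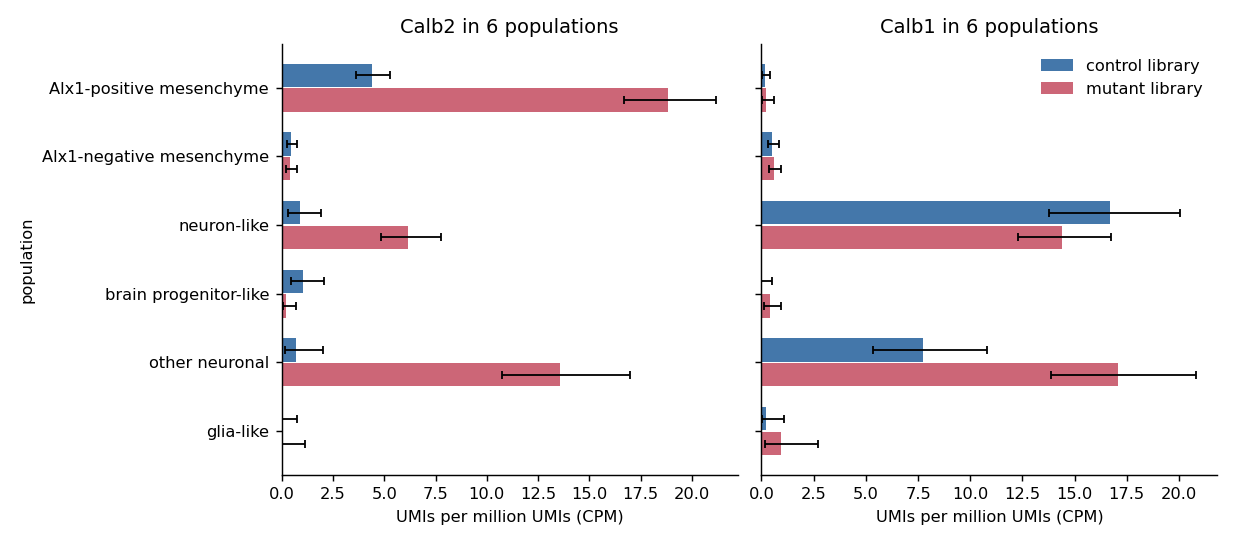
Summed level of Calb2 (left) and Calb1 (right) in 6 populations of cells, in CPM, with 1 bar per library and exact 95% Poisson intervals for counting error. The longest Calb2 bar is Alx1-positive mesenchyme of the mutant library (18.8 CPM), whereas Calb1 is near 0 in mesenchyme and lies between 7.74 and 17.1 CPM in the neuron-like and other neuronal cells.

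In the Alx1-positive mesenchyme of the control library, Calb2 had 117 UMIs in 44 of 1642 cells, or 2.68% (1.95 to 3.58). In the mutant library it had 280 UMIs in 47 of 904 cells, or 5.20% (3.84 to 6.85). The number per positive cell ran from 1 to 16 with a median of 1 in the control library, and from 1 to 21 with a median of 4 in the mutant library. Of the positive cells, 15 control and 26 mutant ones held 3 or more UMIs, and 2 and 11 held 10 or more. Had the 117 control UMIs been spread over the cells in proportion to depth, 112 cells would have held one and 0.141 cells would have held 3 or more. For the 280 mutant UMIs the same sums are 235 and 5.34 cells. The observed UMIs lay in fewer cells than this in both libraries.

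Mesenchyme without an Alx1 UMI had 14 Calb2 UMIs in 14 of 2115 control cells and 12 UMIs in 11 of 1906 mutant cells, and no cell held more than 2. An even spread over cells gives 13.9 and 12 positive cells, close to those seen. The summed level was 4.4 CPM (3.64 to 5.27) with Alx1 and 0.442 CPM (0.242 to 0.742) without it in the control library, a log2 ratio of 3.31 (2.51 to 4.23). The mutant library had 18.8 CPM (16.7 to 21.2) and 0.414 CPM (0.214 to 0.724), which is log2 5.51 (4.68 to 6.48). Median depth with and without Alx1 was 15303 and 14069 UMIs in the control and 15128 and 14124 UMIs in the mutant library.

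The share of Calb2-positive cells was also set against the number of Alx1 UMIs. In the control library 0.662% of cells without Alx1 were positive, 1.63% of cells with 1 Alx1 UMI, 0.984% of those with 2 or 3, 2.33% of those with 4 to 7 and 4.33% (2.85 to 6.27) of cells with 8 or more. Among mutant cells the same shares were 0.577%, 1.32%, 5%, 5.73% and 8.43% (5.30 to 12.6). The shares were thus highest at 8 or more Alx1 UMIs in both libraries, and neighbouring intervals overlap. Cells with 8 or more Alx1 UMIs were deeper, with medians of 17136 and 16612 UMIs, and the part of depth in this order was not tested.

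**Figure D2:**
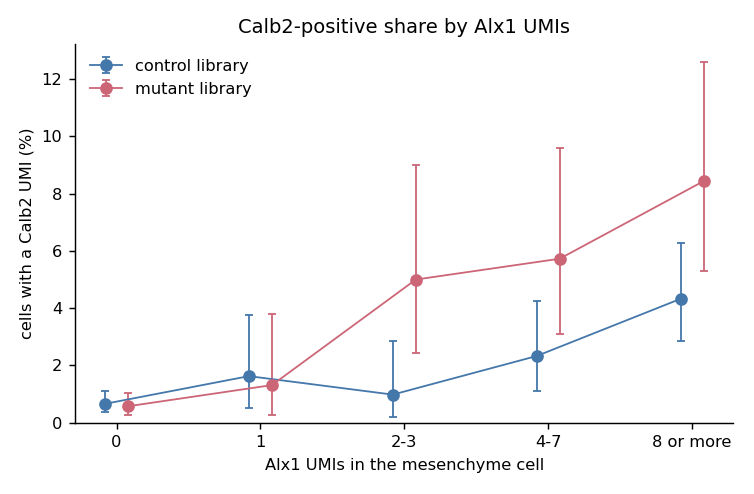
Share of mesenchyme cells with at least 1 Calb2 UMI (percent) by the number of Alx1 UMIs in the cell, with 1 line per library and exact 95% binomial intervals for counting error. Both libraries start under 1% in cells without Alx1, and end at 4.33% (control) and 8.43% (mutant) in cells with 8 or more Alx1 UMIs.

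The mutant library had the higher Calb2 level in this population, with 18.8 against 4.4 CPM and a log2 ratio of 2.10 (1.78 to 2.42). Of the 12993 genes with at least 30 UMIs there, 6.81% were past 1.5-fold, 4.22% being higher and 2.59% lower in mutant cells, and Calb2 was among the 22 genes with the highest ratios. These shares stand beside a gene that was chosen with its ratio known, and nothing is read from them. Without the 5 cells that held most Calb2 UMIs in each library the log2 ratio was 2.24. With each cell thinned to 5000 UMIs, 1.54% of control cells (1.00 to 2.27) and 3.59% of mutant cells (2.47 to 5.03) held a Calb2 UMI, a difference of 2.05 percentage points (0.714 to 3.59). Thinning left out 20 control and 13 mutant cells. The population is defined by Alx1, which was itself lower in the mutant library: 43.7% of the mesenchyme cells held an Alx1 UMI in the control and 32.2% in the mutant library. Over all mesenchyme, without regard to Alx1, Calb2 had 131 UMIs in 58 of 3757 control cells and 292 UMIs in 58 of 2810 mutant cells. Its summed level still differed there, at log2 1.57 (1.27 to 1.88), but the share of positive cells went from 1.54% to 2.06%, a difference of 0.520 points whose interval includes 0 (-0.146 to 1.22). The thinned background was 0.240% and 0.215% in mesenchyme without Alx1, 0.327% and 0% in brain progenitor-like cells, and 0 of 259 and 0 of 198 glia-like cells, which allows shares of up to 1.16% and 1.52%. In the Alx1-negative mesenchyme the log2 ratio of mutant over control was -0.09 (-1.34 to 1.13), an interval that holds changes of over 2-fold either way.

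Within the mesenchyme, Calb2 was highest in cluster M6, a frontonasal-like cluster whose leading genes were Rnf128, Pax7, Hpgd, Gata2 and, although it took no part in the clustering, Calb2 itself. M6 held 59 Calb2 UMIs in 17 of 284 control cells and 169 UMIs in 20 of 119 mutant cells, or 11.7 CPM (8.89 to 15.1) and 84.8 CPM (72.5 to 98.6). Nearly every cell of M6 was Alx1-positive in both libraries (99.6% and 95.8%), but most of its cells carried no Calb2 UMI. Cluster M0, maxillary-like and led by Lhx6, Osr2 and Lhx8, held 19 of the 44 control and 10 of the 47 mutant positive cells. Its Alx1-positive cells had 5.66 CPM (3.87 to 7.98) in the control and 8.29 CPM (5.78 to 11.53) in the mutant library, with intervals that overlap. One mutant cell held 19 of these UMIs, and over all cells of M0 the log2 ratio of mutant over control was 0.41 (-0.28 to 1.11) with the fullest cell of each library and -0.42 (-1.32 to 0.45) without it. Cluster M2, the other frontonasal-like cluster, led by Cxcl13, Crym and Tfap2b, had 1.08 CPM (0.519 to 1.99) in 566 Alx1-positive control cells and 10.1 CPM (7.23 to 13.8) in 245 mutant cells. M1, mandibular-like, had 183 control and 120 mutant Alx1-positive cells, and mural-like M4 had 218 and 126. Neither held more than 3 Calb2 UMIs in its Alx1-positive cells in either library, so Alx1-positive cells of the clusters differed in Calb2.

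**Figure D3:**
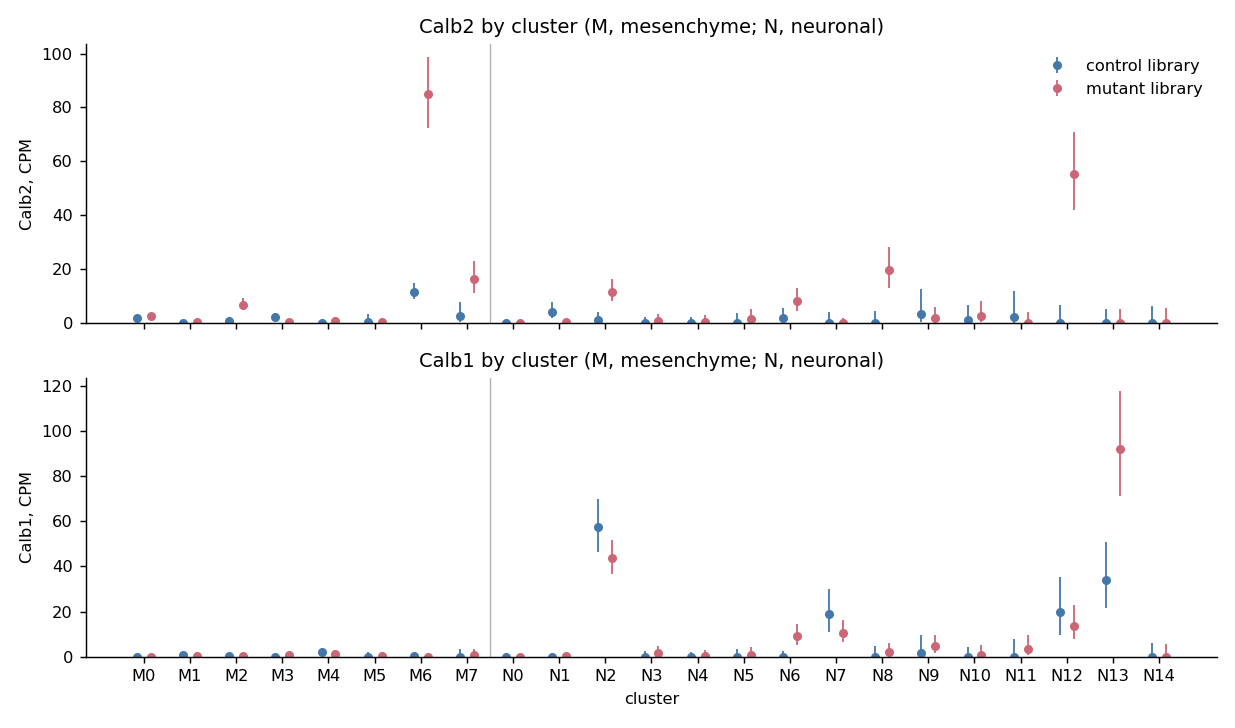
Summed level of Calb2 (top) and Calb1 (bottom) in CPM in each mesenchyme cluster (M) and neuronal cluster (N), with 1 point per library and exact 95% Poisson intervals for counting error. Calb2 stands highest in M6 (84.8 CPM, mutant) and N12 (55.2 CPM, mutant, where 1 cell held 48 of 60 UMIs), and Calb1 in N2 and N13.

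In neuron-like cells, Calb2 was sparse. The control library held 6 UMIs in 4 of 616 cells, with no cell above 2 UMIs. The mutant library held 72 UMIs in 14 of 1026 cells, and the 3 fullest cells carried 28, 13 and 10. The levels were 0.871 CPM (0.320 to 1.90) and 6.17 CPM (4.82 to 7.76), a log2 ratio of mutant over control of 2.82 (1.63 to 4.32), or 2.70 (1.24 to 4.64) without the fullest cell of each library. Of the 12295 genes with at least 30 UMIs in these cells, 6.75% were past 1.5-fold, 3.86% being higher and 2.9% lower in mutant cells. After thinning, the shares of cells with a Calb2 UMI were 0.336% (0.0407 to 1.21) and 0.908% (0.416 to 1.72), with a difference of 0.573 points (-0.428 to 1.43) that includes 0. Most of the mutant UMIs came from N2, the sensory neuron-like cluster led by Sncg, Isl2 and Isl1 (36 UMIs in 7 cells), together with 1 cell of N8 (28 UMIs), a cluster led by Sim1 and Gal. Alx1-positive mesenchyme had a Calb2 level 5.05-fold that of neuron-like cells in the control library (log2 2.34, 1.17 to 3.81) and 3.05-fold in the mutant library (1.61, 1.23 to 2.00).

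The remaining cells of the neuronal class held 3 Calb2 UMIs in 367 control cells and 78 in 502 mutant cells. Of the latter, 60 lay in 7 of the 79 cells of N12, a cluster led by Ttr, the transthyretin gene that choroid plexus expresses, and by the secreted Wnt co-activators Rspo1 and Rspo3. One of those cells held 48 UMIs. Another 16 lay in N6, which held 3 in the control library. N6 was led by the mesenchyme genes Col3a1, Prrx1 and Twist1, carried 1161 (control) and 1288 CPM (mutant) of the mesenchyme list beside 5718 and 5542 CPM of the neuron list, and had 42.4% and 54.5% of its cells called doublets. The class lists named N12 and N6 mesenchyme, so their 60 and 16 mutant UMIs cannot be counted as neuronal. The 44 control cells of N12 held none, against a limit of 3 UMIs or 5.37 CPM. Brain progenitor-like cells held 8 Calb2 UMIs in 624 control cells, 7 of them in 1 cell, and 3 UMIs in 1050 mutant cells. No Calb2 UMI was found in 261 control and 199 mutant glia-like cells.

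Most Calb1 UMIs lay in neuron-like cells in both libraries. Neuron-like cells held 115 UMIs in 13 of 616 control cells and 168 UMIs in 32 of 1026 mutant cells, with 20 and 42 in the fullest cell. The levels were 16.7 CPM (13.8 to 20.04) and 14.4 CPM (12.3 to 16.7), a log2 ratio of -0.21 with an interval that includes 0 (-0.57 to 0.14). Most of it came from the sensory neuron-like cluster N2, with 97 UMIs in 10 cells at 57.3 CPM and 134 UMIs in 18 cells at 43.7 CPM. N7, led by Tfap2d and Cck, held 17 and 19 UMIs. Outside the neuron-like cells, N13, led by the forebrain genes Nkx2-1 and Dlx1, held 23 UMIs in 4 of 56 control cells and 64 UMIs in 10 of 67 mutant cells, or 33.9 and 92.2 CPM. Its log2 ratio was 1.45 (0.74 to 2.20), and 2.37 (1.19 to 3.78) without the fullest cell of each library, which held 16 and 27 UMIs. N12 and N6, which the class lists named mesenchyme, also held Calb1. N12 had 11 control and 15 mutant UMIs, or 19.7 and 13.8 CPM. N6 had 0 control and 18 mutant UMIs, the latter at 9.16 CPM.

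In the Alx1-positive mesenchyme Calb1 had 4 UMIs in 4 of 1642 control cells and 3 UMIs in 3 of 904 mutant cells, or 0.150 CPM (0.0410 to 0.385) and 0.202 CPM (0.0416 to 0.589). None of these 7 cells carried Calb2. Alx1-negative mesenchyme had 16 and 17 Calb1 UMIs, with up to 3 in a cell. The Calb1 level of Alx1-positive mesenchyme was lower than that of neuron-like cells by log2 -6.80 (-8.70 to -5.40) in the control and -6.16 (-8.45 to -4.58) in the mutant library. The log2 ratio of mutant over control in these cells was 0.42 (-2.35 to 2.99), an interval too wide to give a direction.

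Barcodes shared by a pair of cells, or doublets, were looked for, since a mesenchyme cell caught with a neuron would carry UMIs of both. Scrublet called 1.65% of control and 3.06% of mutant cells doublets. Among the Calb2-positive Alx1-positive cells it called 1 of 44 (2.27%, 0.0575 to 12.02) and 3 of 47 (6.38%, 1.34 to 17.5), and among the Calb2-negative ones 1.56% and 3.03%. All 4 called cells lay in M7, a cluster of the mesenchyme class led by the neural genes Pou3f2, Otx2 and Sox2, where Scrublet called 73.2% (control) and 69.7% (mutant). M7 held 3 of the 117 control and 31 of the 280 mutant UMIs of the Alx1-positive mesenchyme. Without M7 the log2 ratio of mutant over control was 2.02, and without called doublets it was 2.09. Median depth was 14776 UMIs in positive and 15347 UMIs in negative cells of the control library, and 14120 and 15182 UMIs in the mutant library.

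The 16 neuron marker genes also named the clusters, so a gap in these genes between mesenchyme and neuron-like cells is part of how the classes were made. It is given only to show where single Calb2-positive cells lay. Per cell the list's UMIs ran from 0 to 38 with a median of 2.5 in the 44 control cells, and from 0 to 12 with a median of 3 in the 47 mutant cells. In neuron-like cells with a Calb2 UMI they ran from 113 to 449 in the control and from 85 to 566 in the mutant library. The only Calb2-positive mesenchyme cell at or above the 5th percentile of neuron-like cells (20 in the control and 25 in the mutant library) was the called doublet of the control library, with 38. Of the Calb2-negative cells, 10 control and 6 mutant ones reached it. Of the 16 neuron genes, 13 were detected in the control Calb2-positive mesenchyme cells and 15 in the mutant ones. Those at 0 were Dcx, Snap25 and Syt1 in the control and Nhlh1 in the mutant cells. The fullest cell of the control library, with 16 Calb2 UMIs, had no neuron-list UMI, and the mutant cells with 21 Calb2 UMIs had 0 and 4. The mesenchyme list named the classes as well. All 10 of its genes were detected in the Calb2-positive mesenchyme cells of each library. In Calb2-positive neuron-like cells the list had 0 UMIs in the control and 1 gene in the mutant library. Those were only 4 and 14 cells, and over all neuron-like cells each library also had UMIs of all 10 genes. The number of mesenchyme genes detected thus depends on the size of the set, and nothing is read from it.

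**Figure D4:**
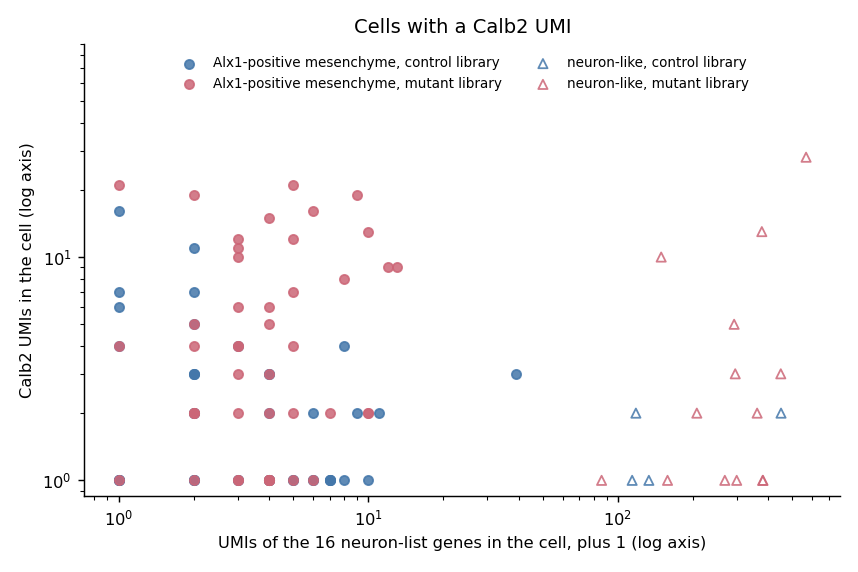
Calb2 UMIs per cell against the UMIs of the 16 neuron-list genes plus 1, both on log axes, for each cell with a Calb2 UMI. Filled circles are Alx1-positive mesenchyme cells and open triangles neuron-like cells, coloured by library. The circles lie between 0 and 38 neuron-list UMIs and the triangles at 85 or more, with cells of over 10 Calb2 UMIs on both sides.

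Summed over cells, the neuron list had 224 CPM (191 to 261) in Calb2-positive and 175 CPM in Calb2-negative Alx1-positive cells of the control library, a log2 ratio of 0.36 (0.12 to 0.58). The mutant values were 211 CPM (180 to 246) and 231 CPM, with a log2 ratio of -0.13 (-0.36 to 0.10). The control difference was 0.16 (-0.11 to 0.41) without called doublets. Gap43, a growth cone gene that the mesenchyme also carried, gave 44.5% and 48.5% of the list's UMIs in the positive cells. Without Gap43, and with called doublets kept, the log2 ratios were 0.75 (0.43 to 1.06) in the control and -0.14 (-0.47 to 0.17) in the mutant library. UMIs of 3 or more neuron-list genes were found in 25% (13.2 to 40.3) of positive and 14.02% (12.4 to 15.8) of negative control cells, and in 27.7% and 25.3% of mutant ones. In neuron-like cells the list stood at 18033 and 17041 CPM. The 11 brain progenitor markers, some of which mesenchyme also expresses, had 692 CPM in positive and 786 CPM in negative control cells, and 1003 and 854 CPM in the mutant ones. Of the neuron subtype lists, the GABAergic one, of which 2 of 7 genes were detected in control and 3 in mutant positive cells, had 245 against 126 CPM and 306 against 124 CPM. The motor neuron list, with 3 and 2 of 6 genes detected, had 243 against 154 CPM and 204 against 143 CPM. The GABAergic list holds Gata2, a leading gene of M6, and had 195 (control) and 246 CPM (mutant) over all M6 cells. The motor neuron list holds Tbx2, a leading gene of the mesenchyme class. Both lists thus hold genes that mesenchyme carries, and how far these sums are neuronal was not tested. The sensory neuron list had 87.5 against 93.4 CPM and 66.6 against 117 CPM. The part of other cells in the Calb2 counts was not tested further.

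Free RNA from lysed cells would bring Calb2 and the neuron genes into a droplet in the ratio of their source. Per 1000 neuron-list UMIs, the Alx1-positive mesenchyme held 24.9 Calb2 UMIs and neuron-like cells 0.0483 in the control library, a log2 ratio of 9.01 (7.85 to 10.5). Mutant cells held 81.7 and 0.362, which is log2 7.82 (7.44 to 8.21). The same list named the classes, and it had 18033 and 17041 CPM in neuron-like cells. In CPM, the Calb2 levels of the 2 populations differed by log2 2.34 and 1.61. The larger ratios per neuron-list UMI thus follow in large part from how the classes were made, and nothing is read from them. The part of free RNA was not tested further. Calb1 had 7 UMIs in all in these mesenchyme cells, and the bearing of this on free RNA was not tested. Of the barcodes, 6 occurred in both libraries, and 1 of the 11 kept cells with such a barcode carried a UMI of the pair.

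Other genes differed between Calb2-positive and Calb2-negative Alx1-positive cells. In the control library, 4.15% of 3929 genes were past 1.5-fold, with 1.32% higher and 2.83% lower in the positive cells. Of 4168 genes in the mutant library, 4.37% were, with 1.68% higher and 2.69% lower. The positive cells are defined by Calb2, and the genes named here were picked for these ratios in the library they were picked in, so those ratios are a description. Of the 10 highest genes picked in the control library, 9 were 1.5-fold or more higher in the mutant library, and of the 10 picked there, 6 were in the control library. Both sets contained Rnf128, Igfbp7, Nkd1, Apcdd1 and Fabp7, and both sets of 5 lowest genes contained Foxd1 and Igfbp5.

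Nkd1, an intracellular Wnt antagonist that is itself induced by Wnt signals, was present in 39 of the 44 control and 41 of the 47 mutant positive cells. It had 199.6 CPM in positive and 56.8 CPM in negative cells of the control library, and 201 and 57.0 CPM in those of the mutant library, log2 ratios of 1.81 (1.56 to 2.06) and 1.82 (1.56 to 2.07). Apcdd1, a membrane-bound Wnt inhibitor, had log2 ratios of 1.70 (1.30 to 2.08) and 1.60 (1.22 to 1.96). Tcf7, a nuclear partner of beta-catenin, had 2.16 (1.63 to 2.65) and 1.52 (0.86 to 2.12). The secreted Wnt antagonist Dkk1 was among the genes picked in the mutant library, at 1.67 (1.34 to 1.99), and had 0.39 (-0.12 to 0.85) in the control library.

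Rnf128, an E3 ubiquitin ligase gene that also led cluster M6, had 45.1 against 11.7 CPM in the control and 58.9 against 7.52 CPM in the mutant library. Its log2 ratios were 1.94 (1.38 to 2.46) and 2.97 (2.44 to 3.48). Igfbp7, a secreted binding protein, had 2.12 (1.65 to 2.55) and 2.32 (1.89 to 2.74), and was found in 16 of 44 and 31 of 47 positive cells. Bdnf, a neurotrophin, was at 1.92 (1.57 to 2.26) and 1.11 (0.69 to 1.51), and the homeobox gene Msx2 at 1.46 (1.24 to 1.67) and 1.88 (1.65 to 2.10). Tubb3, a neuronal tubulin gene picked in the control library, had 1.64 (1.20 to 2.05) there and -0.04 (-0.63 to 0.50) in the mutant library. Called doublets were kept here, and the one among the 44 control cells held 38 neuron-list UMIs of 3 genes. Its part in the Tubb3 ratio was not tested. The neural progenitor gene Hes5, picked in the mutant library, came from 6 cells there and 1 cell in the control library.

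Among the lower genes, the forkhead gene Foxd1 had 6.83 against 52.0 CPM in the control and 7.69 against 71.6 CPM in the mutant library, log2 ratios of -2.93 (-4.55 to -1.70) and -3.22 (-4.67 to -2.09). Igfbp5, another insulin-like growth factor binding protein gene, had -2.56 and -3.77. Foxp2 (-1.75 and -2.40) and Barx1 (-1.40 and -2.44), a homeobox gene of the maxillary and mandibular mesenchyme, were also lower in both libraries. The embryonic globin genes Hbb-y and Hba-x had the lowest control ratios, with 6732 and 2951 UMIs in the negative and 4 and 3 in the positive cells. The mutant negative cells held 9 and 3. The expected UMIs were then taken from negative cells of the same cluster: 9 of the control library's 10 genes were then 1.5-fold or more higher in the mutant positive cells, and 7 of the mutant library's 10 in the control ones. Dkk1 was not past 1.5-fold in the control library before this step and had 1.88 times the expected UMIs after it.

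**Figure D5:**
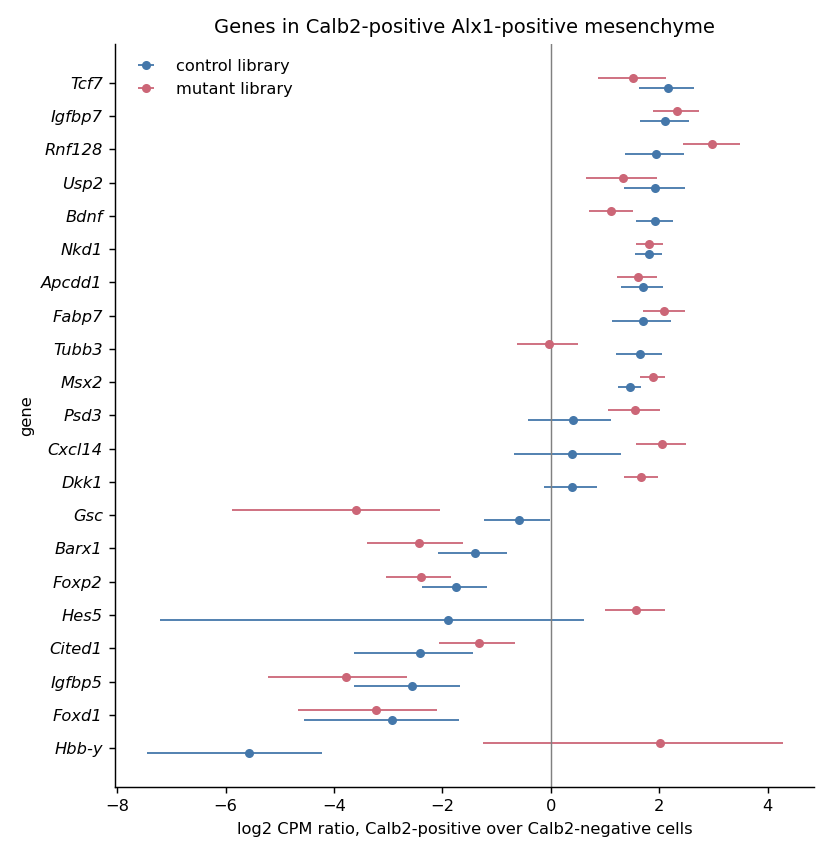
Log2 ratio of summed CPM in Calb2-positive over Calb2-negative Alx1-positive mesenchyme cells for the genes named by size of the ratio, with 1 point per library and exact 95% intervals for counting error. Hba-x, which had 0 UMIs in the mutant positive cells, is not plotted, and not every named gene is shown. Nkd1, Apcdd1, Igfbp7 and Rnf128 lie above 1 and Foxd1, Igfbp5 and Foxp2 below -1 in both libraries.

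Genes that mark regions of the face differed in how they lay with Calb2. In positive against negative cells, the log2 ratio of Alx1 was 0.45 (0.30 to 0.59) in the control and 0.44 (0.29 to 0.60) in the mutant library. Alx1 defined the population, and Alx4, which did not, was at 0.23 (-0.14 to 0.58) and 0.38 (0.000995 to 0.73). The paired box genes Pax3 (1.31 and 1.03) and Pax7 (0.62 and 1.28) and the homeobox gene Msx1 (1.11 and 1.29) were higher with Calb2 in both libraries, with counting-error intervals above 0. So was Lhx8 (1.25 and 0.84), a gene of the maxillary-like cluster, whereas Lhx6 of the same cluster was at -0.12 (-1.58 to 1.03) and -0.92 (-2.38 to 0.23). Six2 was lower at -1.04 and -1.12, and so was Prrx1 at -0.70 and -0.83. None of these intervals covers the spread between cells. Against negative cells of the same cluster, the counting-error intervals of Pax3, Msx1, Lhx8 and Prrx1 still excluded equality in both libraries. Pax7 then had 1.04 (0.761 to 1.39) and 1.08 (0.805 to 1.43) times the expected UMIs, so that its difference was lost in both. Six2 had 0.813 (0.540 to 1.18) times the expected UMIs in the control library, where it was lost, and 0.589 (0.388 to 0.857) in the mutant library.

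The targeted genes were low in the Calb2-positive cells. Tfap2a had 12 UMIs in 8 of the 44 control cells, or 16.4 CPM against 29.7 CPM in Calb2-negative cells, a log2 ratio of -0.86 (-1.81 to -0.04). In mutant cells it had 1 UMI in the 47 positive cells, or 1.28 CPM against 14.8 CPM. Tfap2b had 36.9 against 96.8 CPM in the control library (log2 -1.39, -1.996 to -0.85) and 35.9 against 75.1 CPM in the mutant library (-1.07, -1.66 to -0.53), and was found in 4 of 44 and 5 of 47 positive cells. Over all Alx1-positive cells, 32.1% of control and 25.3% of mutant ones held a Tfap2b UMI. Against negative cells of the same cluster, 12 Tfap2a UMIs stood beside 16.2 expected ones in the control library, and 1 beside 10.2 in the mutant library. The control ratio of these, 0.739 (0.382 to 1.29), includes equality. Tfap2b had 0.646 (0.426 to 0.941) and 0.519 (0.345 to 0.749) times the expected UMIs.

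The rest of the gene family was set beside Calb2. Of 41 other EF-hand genes, 26 had at least 30 UMIs in the Alx1-positive mesenchyme, and their median log2 ratio of mutant over control was 0.05 beside 0.02 over all genes tested. Past 1.5-fold were 2 higher and 3 lower genes of the 26, where 4.22% of all 12993 genes tested were higher and 2.59% lower. Cabp1, a neuronal calcium sensor, was at 0.489 and 1.21 CPM (log2 1.31, 0.20 to 2.46), and Necab3 at log2 0.77 (-0.19 to 1.72). S100a6 went from 18.8 to 8.34 CPM (-1.17, -1.47 to -0.89) and S100a4 from 1.80 to 0.336 CPM (-2.42, -4.11 to -1.10), and S100a16 was at -0.59 (-1.51 to 0.27). None of the 13 tested genes of the calcium transport list, which holds the pumps, exchangers and release channels that move calcium across membranes, passed 1.5-fold. Over all genes tested the share past 1.5-fold either way was 6.81%, and nothing is read from the counts of these short lists.

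In neuron-like cells, 27 EF-hand genes were tested and had a median log2 ratio of -0.02 beside 0.01 over all genes. Of all 12295 genes tested there, 3.86% were 1.5-fold higher and 2.9% lower, and nothing is read from the list counts beside these shares. None of the 27 was 1.5-fold higher, and Cabp1 (-1.05, -1.50 to -0.61) and S100a10 (-0.79, -0.91 to -0.68) were lower. Of 16 calcium transport genes, the exchanger gene Slc8a3 (0.66, -0.19 to 1.59) and the ryanodine receptor gene Ryr3 (1.77, 0.39 to 3.50) were higher and Ryr2 (-0.65, -1.50 to 0.22) lower. Of these 5 genes, the intervals of Cabp1, S100a10 and Ryr3 exclude 0.

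Over 46 points, each a class or cluster of at least 50 cells in 1 library, the gene most like Calb2 was 1110017D15Rik, with a Pearson r of 0.58 across log2(CPM + 1), followed by Clu (0.57) and Gulo (0.57). Among the genes most like Calb1 were Rasa4 (0.72) and Ecel1 (0.71). The points share libraries and overlap as classes and their clusters, so these values only describe the pattern. The likeness was weaker for Calb2, whose level in several clusters rests on 1 or a few cells.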

How the data were processed

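Per the labels and file headers, the authors made the deposited UMI counts, which are whole and not normalized, from 10x 3′ libraries with Cell Ranger 6.0.0 and the mm10 reference, and deposited filtered barcodes. The columns of both matrices were used as deposited, and the strand setting is not given in the sources used here. Barcodes with over 10% mitochondrial UMIs, under 200 or over 7500 genes were removed, as in the study. The libraries were integrated with Seurat 5.3.0 (R 4.3.3) on 2000 variable genes and 30 dimensions. A resolution of 0.05 gave mesenchyme-like, neuronal and glia-like classes. Mesenchyme and neuronal cells were then sub-clustered (20 dimensions, resolution 0.4), and neuron-like and brain progenitor-like cells are neuronal clusters named from the marker lists, a step settled after the clusters were seen. The members and lists were chosen with earlier results of these data known. Doublets were called by Scrublet (scanpy 1.11.5) and kept.

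Counts were summed per library and population and expressed per 1000000 UMIs (CPM). Sums have exact Poisson, shares Clopper-Pearson and log2 ratios conditional binomial intervals. Differences of shares combine both Clopper-Pearson intervals by Newcombe's square-and-add method. Ratios over expected UMIs have the Poisson interval of the observed count. They take the expected count as fixed and leave out the counting error of the negative cells. With 1 library per group no p-value was computed, and a count of 0 allows up to 3 UMIs or cells. Genes beside the members were named by rule: the 10 highest and 5 lowest ratios of Calb2-positive over Calb2-negative cells per library at 30 UMIs or more, the EF-hand and calcium transport genes past 1.5-fold, the 5 genes most like each member in pattern, and marker genes that check a class. Some genes that the rule names are not reported here. Of 32285 gene identifiers, 32235 were found in GENCODE M21 (GRCm38). The scripts were tested on simulated data. Alternatives covered doublets, the definition of Alx1-positive cells, TMM scaling (edgeR 4.0.16), thinning, equal weight per cell, clustering and filters.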

Additional observations from a re-analysis of the deposited data

Results flagged for a closer look

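In 3 sets of cells Calb2 was lower in the mutant library with an interval that excludes 0, opposite to the Alx1-positive mesenchyme (log2 2.10). The difference between the sets was not tested. In brain progenitor-like cells the log2 ratio of mutant over control was -2.15 (-4.70 to -0.09), from 8 control and 3 mutant UMIs. In mesenchyme cluster M3, second arch-like and led by Dlx3, Emx2 and Hoxa2, it was -2.07 (-4.09 to -0.48), from 19 and 4 UMIs. In neuronal cluster N1, led by Fgf17, Fgf8 and Nkx2-9, it was -3.71 (-9.18 to -0.81), from 8 UMIs and 1 UMI. Without the fullest cell of each library, which held 7, 11 and 7 of the control UMIs, the ratio was 0.26 (-4.0004 to 6.15) in brain progenitor-like cells and -1.82 (-5.09 to 0.50) in M3, and N1 kept 1 control UMI. The brain progenitor-like cells include N1, so the values are not independent.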

How the results depend on the processing

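Of 75 alternative values over 10 results, 66 stayed within counting error of the value reported, or for the count of genes within 1.5 times of it, 9 moved further and none changed the sign of a called value. The log2 ratio of Calb2 in Alx1-positive mesenchyme ranged from 1.72 to 2.28 and was lowest, at 1.72, without cells that held UMIs of 3 or more neuron-list genes. In the control library the same step moved the neuron-list ratio of positive over negative cells to 0.045, and leaving out Gap43 moved it to 0.75. In the mutant library, a wider definition of the Alx1-positive cells moved that ratio to 0.42 and the ratio of Calb2 per neuron-list UMI to 7.08, and asking for 2 Alx1 UMIs moved the latter to 8.26. With equal weight per cell, Calb1 in neuron-like cells was at 0.14. The 885 genes past 1.5-fold became 318 at a minimum of 100 UMIs and 3339 without a minimum. Causes were not tested. Calb1 in thinned Alx1-positive cells gave no ratio, since the mutant library then held none. Leaving out cluster M7, the fullest cells and Gap43 were alternatives chosen after seeing the data. Cluster borders, though not the 3 classes, also moved with the settings of the numerical library, and 1 fixed setting was used. No paired analysis was possible because each group has 1 library. The Calb1 ratio in Alx1-positive mesenchyme rests on 4 and 3 UMIs.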

Other observations

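The barcodes removed by the filters also held UMIs of the pair. In the control library, 523 removed barcodes held 2 Calb2 and 3 Calb1 UMIs. In the mutant library, 476 held 33 Calb2 UMIs in 3 barcodes and 15 Calb1 UMIs in 6, or 16.9 and 7.67 CPM.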
